A study of Mus musculus with 20 samples.

Results

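The genes described here carry cholesterol out of macrophages or answer to the liver X receptors (LXR). They are the rows of the normalized gene count table whose symbol is Abca1, Abcg1, Nr1h2, Nr1h3, Apoe, Pltp, Mylip, Lpcat3 or Npc1, and all 9 were found among the 14456 genes listed. The cells were bone marrow-derived macrophages (BMDM) of 8-week-old wild type C57BL/6 mice, grown with 25 ng/ml M-CSF for 6 days. Normal glucose BMDM were kept for 24 h in 5.5 mM glucose with 19.5 mM mannitol, and high glucose BMDM in 25 mM glucose (n = 4 libraries each). In the other experiment naive BMDM received PBS, exosomes from normal glucose BMDM (BMDM-NG-exo) or exosomes from high glucose BMDM (BMDM-HG-exo) for 24 h, again with n = 4 libraries each and 2000000000 particles per ml. No donor mouse carried an engineered allele, so Apoe was intact in these cells, and the exosome-treated samples came from separate exosome preparations.

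Macrophages that take up lipoproteins return the cholesterol to the circulation by efflux. ABCA1 passes cholesterol and phospholipid to lipid-poor apolipoprotein A-I, and ABCG1 passes cholesterol to mature HDL. LXRβ (Nr1h2) and LXRα (Nr1h3) sense oxysterols, pair with a retinoid X receptor and switch on Abca1, Abcg1, Apoe, Pltp, Mylip and Lpcat3. NPC1 lies upstream of the pathway, since it lets cholesterol leave the lysosome. Loss of macrophage efflux is known to promote foam cell formation and atherosclerosis.

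LXR and its partner bind a direct repeat of the half-site AGGTCA with 4 bases between the copies (DR4), and the proximal Abca1 promoter is known for such an element. RefSeq promoter windows of GRCm38.p6, from 250 bases before to 50 bases after the start of transcription, were searched on both strands for the best match to the 12 half-site bases. The 2 windows shown belong to Abca1 and Pltp, which were both called lower in high glucose and after BMDM-HG-exo (against PBS). They are written 5′ to 3′ in the direction of transcription, with the best match in capitals. In the Abca1 window (chr4:53159846-53160145, minus strand) the match holds 9 of the 12 bases and lies 67 to 52 bases before the start. In the Pltp window (chr2:164857659-164857958, minus strand) the best match holds only 7 of the 12 bases.
Abca1: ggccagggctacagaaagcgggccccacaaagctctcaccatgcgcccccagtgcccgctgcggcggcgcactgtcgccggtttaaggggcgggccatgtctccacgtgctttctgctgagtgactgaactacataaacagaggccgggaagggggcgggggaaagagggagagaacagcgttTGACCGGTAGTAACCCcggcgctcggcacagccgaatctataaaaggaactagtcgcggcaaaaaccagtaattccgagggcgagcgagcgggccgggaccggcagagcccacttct
Pltp: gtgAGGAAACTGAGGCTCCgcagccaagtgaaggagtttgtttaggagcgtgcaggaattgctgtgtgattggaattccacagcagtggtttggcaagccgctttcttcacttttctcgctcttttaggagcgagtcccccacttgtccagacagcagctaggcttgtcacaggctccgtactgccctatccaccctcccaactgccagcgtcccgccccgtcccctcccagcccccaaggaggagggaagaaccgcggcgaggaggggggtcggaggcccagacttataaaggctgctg
A match of at least 9 bases was present in 21.9% of the 32851 promoter windows, and one of at least 7 bases in 99.8%. The windows of Nr1h2, Nr1h3, Apoe and Lpcat3 held at best 8 of 12 bases, a number that 76.9% of all windows reached, and that of Mylip held 7. Windows of Abcg1 and Npc1 were not used, so their best matches are not known here. These letters describe the windows and do not show binding.

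The table holds gene counts that the authors divided by 1 size factor per library, called normalized counts below. The reads behind them came to between 34016445 and 56310712 per library. The group medians were 36622308 with PBS, 47923964 with BMDM-NG-exo, 44199837 with BMDM-HG-exo, 41060624 in normal glucose and 41896666 in high glucose. PBS libraries were thus the shallower ones by median, and the part of depth in the results was not tested. The macrophage markers Adgre1, Cd68, Csf1r, Itgam, Fcgr1, Lyz2 and Cd14 were listed (7 of 7), with a summed level of 621526 to 873635 normalized counts. Neutrophil markers (5 of 8 listed) summed to between 165 and 378, stromal markers (4 of 7) to between 121 and 349, the endothelial gene Kdr to between 266 and 445, and the B cell gene Cd79b to between 17.4 and 68.0. No T cell, dendritic cell, erythroid, adipocyte or mast cell marker of the lists was among the listed genes. The macrophage sum itself moved with the groups. It was 802700 to 873635 in high glucose against 621526 to 696136 in normal glucose, where 4 markers were called higher and 1 lower, and 788414 to 835970 with PBS against 711079 to 768278 with BMDM-NG-exo and 729056 to 754055 with BMDM-HG-exo, where 5 markers were called lower against PBS with either exosome. Of all genes tested, 13.3% were called in high glucose. Against PBS, 4.84% were called with BMDM-HG-exo and 3% with BMDM-NG-exo. Fcgr1 and Itgam (2 of the 7) were also called lower with BMDM-HG-exo against PBS and BMDM-NG-exo combined. In that comparison 0.201% of all genes tested were called. The part of the macrophage sum in the results below was not tested.

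Per kilobase of exon, the order of the members by mean normalized count over the 20 libraries was led by Apoe, at 145483 (SD 15244). Pltp followed at 11157 (SD 1123), then Abca1 at 1783 (SD 151), Mylip at 1598 (SD 124), Abcg1 at 1369 (SD 57.6), Npc1 at 1089 (SD 71.6) and Nr1h2 at 1051 (SD 93.9). Lpcat3 (261, SD 23.3) and Nr1h3 (259, SD 26.3) came last, so LXRβ transcripts were the more abundant of the pair in each group, by a per-kilobase ratio of 3.59 ± 0.311 in high glucose to 4.43 ± 0.563 with BMDM-HG-exo (SD, n = 4). Apoe lay above 99.9% of listed genes on this scale and Nr1h3 above 64.0%. Each member had at least 540 reads in each library, and counting error weighed most on Nr1h3 and Lpcat3, which had the fewest reads.

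**Figure D1:**
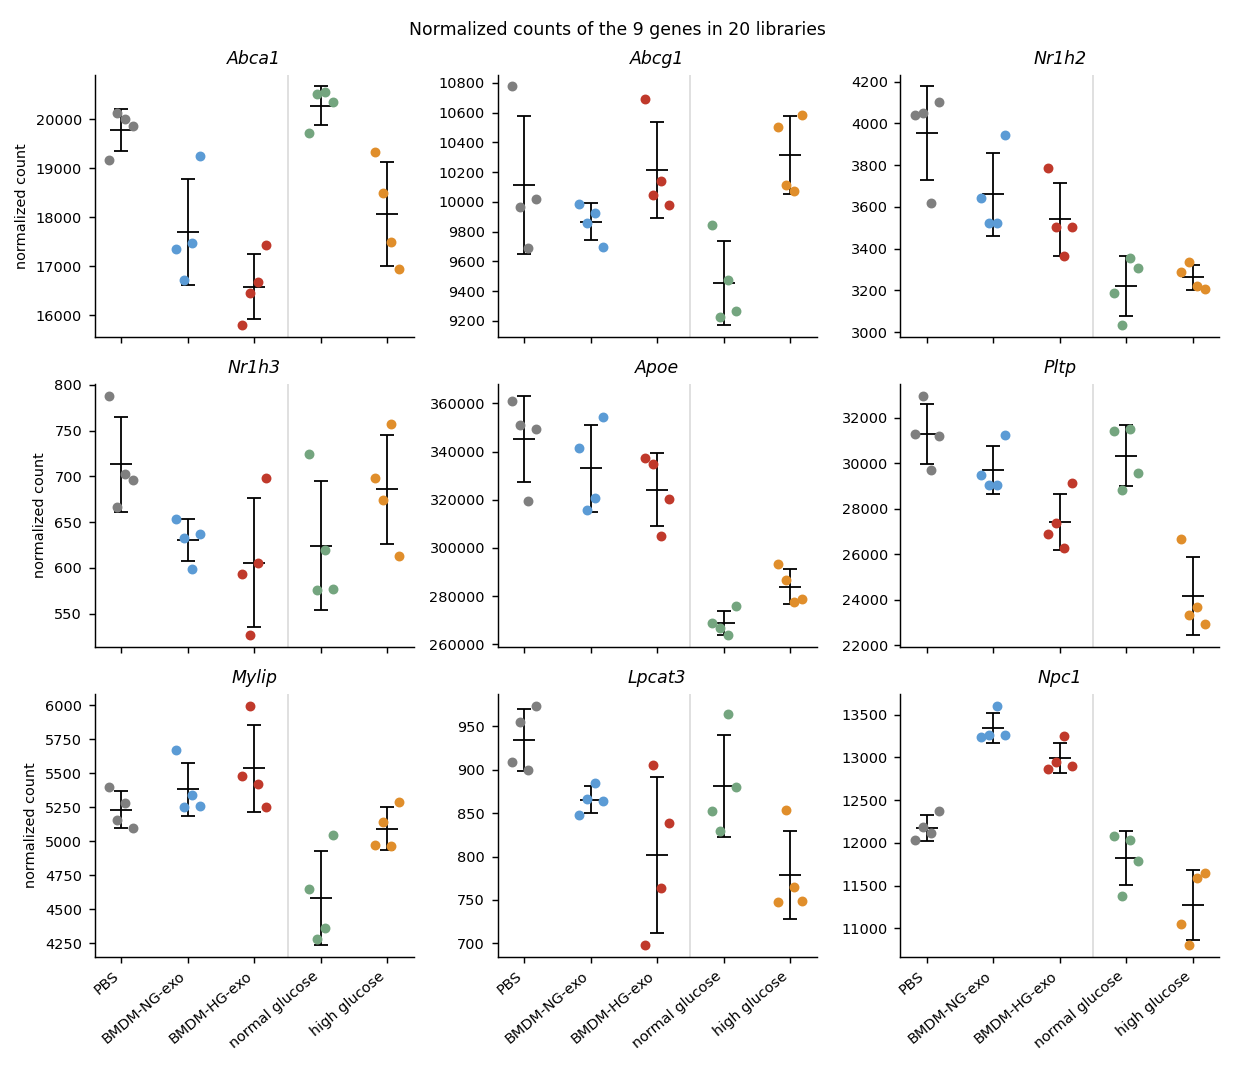
Normalized counts (vertical axes, which do not start at 0) of the 9 genes in the 5 groups (horizontal axes), with 1 point per library, the mean as a short line and the SD as error bars (n = 4 per group). Abca1 sits highest in normal glucose and with PBS, while Pltp is lowest in high glucose and Apoe is lower in both glucose groups than in the exosome experiment.

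Groups were compared on log2(normalized count + 1) with limma's moderated test across all genes, with Benjamini-Hochberg adjustment. Genes with an adjusted p under 0.05 were called, and for exosomes the log2 fold change also had to reach 0.15 in size. In bulk RNA, fewer cells expressing a gene and less RNA per cell cannot be told apart. For the glucose libraries nothing states separate cultures or animals, so p-values measure the spread between libraries, which may be technical.

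The first question was what high glucose itself did to these genes. Abca1 and Pltp fell, Abcg1 and Mylip rose, and the receptors, Apoe, Lpcat3 and Npc1 were not called. That is 4 of 9 members (44.4%), where 13.3% of the 14425 genes tested were called. Without the variance trend 1 member, Pltp, was called, and 4.53% of all genes tested. By direction, 2 members were called higher against a background of 7.74%, and 2 lower against 5.53%. Of all genes, 1116 were called higher and 798 lower, and with quantile normalization 789 and 873. The median log2 fold change of the 9 members was 0.02, and that of all genes tested -0.003. The groups did not overlap for 4 members (Abca1, Pltp, Abcg1 and Apoe), which 16.3% of all genes tested also showed.

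Abca1 (ENSMUSG00000015243, chromosome 4 of GRCm38, 53030787 to 53159895, minus strand) had 19710, 20507, 20550 and 20349 normalized counts in normal glucose, against 19321, 18496, 17497 and 16942 in high glucose. Each high glucose library lay below each normal glucose library, although the nearest 2 differed by little, and the high glucose libraries were the more spread out (18064 ± 1056 against 20279 ± 389, SD, n = 4). The log2 fold change was -0.17 (SE 0.036, adjusted p = 0.00119, limma), so that Abca1 fell by 11.0%. An exact two-sided permutation test of Abca1 alone gave p = 0.0286, the smallest that 4 against 4 libraries allow. The Abca1 call held in each fit without 1 library, and was lost without the variance trend (adjusted p = 0.116, limma).

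Pltp, the phospholipid transfer protein that remodels HDL (chromosome 2, 164839518 to 164857711), showed the largest change of the 9. Its normalized counts were 31426, 28829, 31524 and 29578 in normal glucose, against 26694, 23334, 23708 and 22940 in high glucose. The groups stood clearly apart, with 1 high glucose library nearer to the normal glucose ones than the other 3. Pltp fell by 20.4% (log2 fold change -0.33, SE 0.039, adjusted p = 9.04e-08, limma), and the call held in all 19 alternative fits. Ctsa overlaps Pltp on the opposite strand, and counting was by strand.

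Abcg1, on chromosome 17 from 31057675 to 31117988, moved the other way from Abca1. It had 9845, 9228, 9472 and 9266 normalized counts in normal glucose, against 10501, 10116, 10071 and 10584 in high glucose. All high glucose libraries were above all normal glucose ones, and the mean rose by 9.16% (log2 fold change 0.13, SE 0.036, adjusted p = 0.0157, limma). The call was lost with quantile normalization (log2 fold change 0.07, adjusted p = 0.182, limma), without the variance trend (0.137, limma) and under a fold limit of 0.15, and without high glucose replicate 1 or replicate 6 the adjusted p was 0.0509 or 0.0713. The per-kilobase ratio of Abca1 to Abcg1 was 1.51 ± 0.0699 in normal glucose and 1.23 ± 0.0779 in high glucose (SD, n = 4). The ratio could not overlap between the groups, because each gene already separated them in opposite directions.

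Mylip encodes the ubiquitin ligase IDOL, which marks lipoprotein receptors for degradation, and lies on chromosome 13 from 45389742 to 45412022. Its normalized counts were 4646, 4284, 4364 and 5049 in normal glucose, against 4973, 5145, 4965 and 5293 in high glucose. Here the groups overlapped, because 1 normal glucose library reached the high glucose range. Mylip rose by 11.3% (log2 fold change 0.15, SE 0.046, adjusted p = 0.0213, limma), but the call rested on single libraries, since it was lost without normal glucose replicate 3 (adjusted p = 0.0810), normal glucose replicate 5 (0.0992), high glucose replicate 2 (0.0596) or high glucose replicate 6 (0.0964, all limma), and also with quantile normalization (0.0916) or without the variance trend (0.202).

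Of the members that were not called, Apoe had the narrowest interval. Its normalized counts were 268930, 266826, 263930 and 275792 in normal glucose, against 293241, 286526, 277428 and 278593 in high glucose, without overlap, and the log2 fold change was 0.08 (95% interval 0.01 to 0.14, adjusted p = 0.113, limma). DESeq2 and quantile normalization called Apoe higher (adjusted p = 0.0443 and 0.0298). Lpcat3, which builds polyunsaturated phospholipids into membranes, had 881 ± 58.7 normalized counts in normal glucose and 779 ± 50.5 in high glucose (SD, n = 4), with a log2 fold change of -0.18 (95% interval -0.33 to -0.02, adjusted p = 0.128, limma). For Npc1 the means were 11823 ± 320 and 11272 ± 409 (SD, n = 4), a log2 fold change of -0.07 (95% interval -0.14 to 0.00, adjusted p = 0.229, limma), and quantile normalization called it lower (-0.14, adjusted p = 0.00414, limma). The 2 receptors gave no call under any alternative. Nr1h2 had 3220 ± 144 and 3262 ± 60.3 normalized counts (SD, n = 4, log2 fold change 0.02, 95% interval -0.07 to 0.11), and Nr1h3 had 624 ± 70.2 and 686 ± 59.9 (SD, n = 4, log2 fold change 0.14, 95% interval -0.05 to 0.32).

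**Figure D2:**
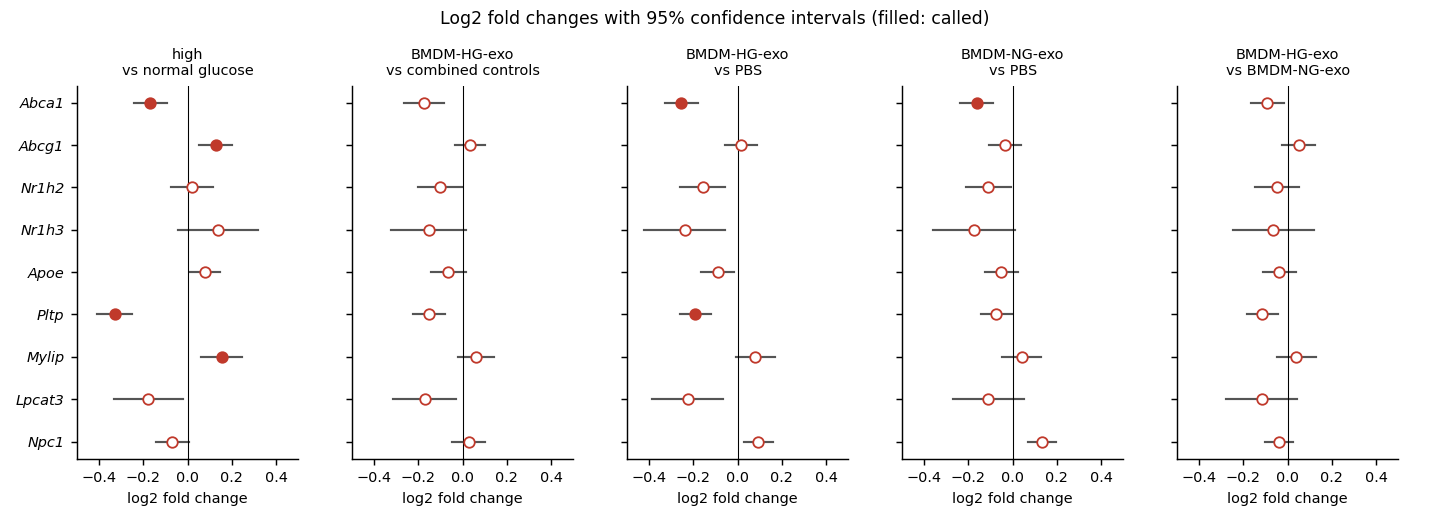
Log2 fold changes (horizontal axes) of the 9 genes (vertical axis) in the 5 comparisons, with points for the limma estimate, lines for the 95% confidence interval and filled points for called genes. Abca1 lies left of 0 in each panel, at -0.17 in high glucose and -0.26 for BMDM-HG-exo against PBS, while Abcg1 and Mylip are called in high glucose alone among these 5 comparisons. The 4 exosome panels share libraries.

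The study set BMDM-HG-exo against PBS and BMDM-NG-exo combined, to ask what exosomes from high glucose BMDM do to recipient cells. In that comparison no member was called by limma (0 of 9), where 0.201% of the 14413 genes tested were called, and edgeR gave 0 as well. DESeq2 on the recovered reads called 2 (and 0.944% of all genes tested), Abca1 (log2 fold change -0.17, adjusted p = 0.0314) and Pltp (-0.15, adjusted p = 0.0141), and 4 members had an unadjusted p under 0.05 in limma, as 10.5% of all genes tested did. Both genes were close to the limma threshold. Abca1 had a log2 fold change of -0.17 (SE 0.044, adjusted p = 0.0734) and Pltp one of -0.15 (SE 0.035, adjusted p = 0.0570). No member separated the 4 BMDM-HG-exo libraries from all 8 controls, which 1.17% of all genes tested did. For Abca1, Pltp, Lpcat3 and Nr1h2, 3 of the 4 lay below all 8 controls. The share of all genes with 3 of the 4 beyond the controls was not counted. The exact two-sided permutation test of Abca1 gave p = 0.0162 (smallest possible 0.00404). Leaving out BMDM-NG-exo replicate 1, 2 or 3 brought both genes past the threshold (adjusted p of 0.0351, 0.0322 and 0.0210 for Abca1 and 0.0323, 0.0391 and 0.0149 for Pltp, limma), as leaving out BMDM-HG-exo replicate 4 did for Pltp (0.0372). Calls over all genes also rose in these fits, from 29 to 97, 50, 204 and 45. In the 12 fits without 1 library, Abca1 was called in 3 and Pltp in 4. Without BMDM-HG-exo replicate 1 the adjusted p was 0.351 for Abca1 and 0.248 for Pltp (limma).

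Taking the 2 controls apart showed that Abca1 was lower than PBS with either kind of exosome. It had 19159, 20117, 19995 and 19867 normalized counts with PBS, 17344, 16711, 17471 and 19239 with BMDM-NG-exo, and 15792, 16453, 16665 and 17422 with BMDM-HG-exo. All BMDM-HG-exo libraries lay below all PBS libraries, and the BMDM-NG-exo libraries overlapped both other groups, with 1 of them inside the PBS range. Against PBS, Abca1 fell by 16.2% with BMDM-HG-exo (log2 fold change -0.26, SE 0.037, adjusted p = 9.05e-06, limma), and it fell by 10.7% with BMDM-NG-exo (log2 fold change -0.16, SE 0.037, adjusted p = 0.00601, limma). The first call held in all 23 alternative fits. Among these, the fit without the fold limit could not lose it. The fits without a BMDM-NG-exo library kept all libraries of its 2 groups. The second call was lost without BMDM-NG-exo replicate 2 (adjusted p = 0.0502, limma) and without the variance trend (0.208, limma). Both comparisons use the same PBS libraries.

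Between the 2 kinds of exosome the Abca1 difference was -0.09 on the log2 scale (95% interval -0.17 to -0.02, unadjusted p = 0.0178, adjusted p = 0.635, limma), and it was not called in any alternative fit. The exact two-sided permutation test of Abca1 gave p = 0.0286 for BMDM-HG-exo against PBS, 0.0571 for BMDM-NG-exo against PBS and 0.114 between the exosomes, with 0.0286 the smallest possible. The order of the Abca1 means over the 5 groups was normal glucose (20279), PBS (19784), high glucose (18064), BMDM-NG-exo (17691) and BMDM-HG-exo (16583), and the ranges of neighbours in this order overlapped. No test was made across the experiments.

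Abcg1, by contrast, had 10113 ± 466 normalized counts with PBS, 9867 ± 125 with BMDM-NG-exo and 10214 ± 324 with BMDM-HG-exo (SD, n = 4). The 3 ranges overlapped, and the log2 fold changes against PBS were 0.01 for BMDM-HG-exo (95% interval -0.06 to 0.09) and -0.03 for BMDM-NG-exo (95% interval -0.11 to 0.04). The per-kilobase ratio of Abca1 to Abcg1 was 1.38 ± 0.0890 with PBS, 1.26 ± 0.0913 with BMDM-NG-exo and 1.15 ± 0.0781 with BMDM-HG-exo (SD, n = 4).

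Pltp was the other member called after BMDM-HG-exo. Its normalized counts were 31282, 32948, 29723 and 31215 with PBS, 29495, 29035, 29026 and 31248 with BMDM-NG-exo, and 26883, 27362, 26279 and 29137 with BMDM-HG-exo. Each BMDM-HG-exo library was below each PBS library, and 3 of 4 were below each BMDM-NG-exo library. Against PBS the log2 fold change was -0.19 with BMDM-HG-exo (SE 0.035, adjusted p = 0.000259, limma), a call lost without the variance trend (0.0757), and -0.07 with BMDM-NG-exo (95% interval -0.15 to 0.00, adjusted p = 0.324, limma). The difference between the exosomes was -0.12 (95% interval -0.19 to -0.05, unadjusted p = 0.00199, adjusted p = 0.428, limma), and was not called.

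In all, 2 of 9 members (Abca1 and Pltp) were called for BMDM-HG-exo against PBS, where 4.84% of genes tested were called, and 1 of 9 (Abca1) for BMDM-NG-exo against PBS, where 3% were. For BMDM-HG-exo against BMDM-NG-exo limma, edgeR and DESeq2 each called 0 of 9, with 2 at an unadjusted p under 0.05 in limma (6.54% of all genes tested) and a background of 0.0139%, which is 2 genes (22 genes with the label date as a block, none of them a member). The groups did not overlap for 3 members in the first comparison (background 10%), for 3 in the second (8.27%) and for 0 in the third (3.86%). The median log2 fold changes of the 9 members were -0.16, -0.07 and -0.05, while those of all genes tested were 0.003, 0.005 and -0.001.

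Npc1, on chromosome 18, lay higher with exosomes. It had 12029, 12186, 12111 and 12378 normalized counts with PBS, 13241, 13256, 13600 and 13266 with BMDM-NG-exo, and 12862, 12950, 13250 and 12896 with BMDM-HG-exo. Every exosome library was above every PBS library, and the replicates of each group were close together. The log2 fold change for BMDM-NG-exo against PBS was 0.13 (SE 0.032, adjusted p = 0.0104, limma), which passes the adjusted p but is under the limit of 0.15, so Npc1 was not called. For BMDM-HG-exo against PBS it was 0.09 (SE 0.032, adjusted p = 0.0833, limma), and between the exosomes -0.04 (95% interval -0.10 to 0.03). Rmc1 overlaps Npc1 on the opposite strand.

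The receptor genes had their highest means with PBS. Nr1h2 had 4039, 4048, 3617 and 4103 normalized counts with PBS, 3643, 3525, 3525 and 3945 with BMDM-NG-exo, and 3784, 3504, 3366 and 3504 with BMDM-HG-exo. A single low PBS library lay inside the range of the exosome libraries. The log2 fold change for BMDM-HG-exo against PBS was -0.16 (SE 0.050, adjusted p = 0.0539, limma), just outside the threshold, and Nr1h2 was called with the label date as a block (0.0195, limma), by edgeR (0.0459), by DESeq2 (0.0333) and without PBS replicate 3 (0.0105, limma). Most alternatives left it uncalled. It was called in 3 of 12 fits without 1 library and in 5 of 11 others, with an adjusted p of up to 0.226 (limma). Nr1h3 had 713 ± 52.0 normalized counts with PBS, 631 ± 22.9 with BMDM-NG-exo and 606 ± 70.7 with BMDM-HG-exo (SD, n = 4). Its log2 fold change for BMDM-HG-exo against PBS was -0.24 (95% interval -0.42 to -0.06, adjusted p = 0.136, limma), and it passed only without BMDM-HG-exo replicate 4 (0.0465, limma).

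The members Apoe, Mylip and Lpcat3 were not called by limma in any exosome comparison. Apoe, the ligand for lipoprotein receptors, had 345153 ± 17806, 333040 ± 18105 and 324200 ± 14995 normalized counts in recipients of PBS, of BMDM-NG-exo and of BMDM-HG-exo (SD, n = 4), and the 3 ranges overlapped (BMDM-HG-exo against PBS, log2 fold change -0.09, 95% interval -0.16 to -0.02, adjusted p = 0.180, limma). Mylip had 5234 ± 134, 5384 ± 196 and 5537 ± 320 (log2 fold change 0.08, 95% interval -0.01 to 0.17). Lpcat3 had 934 ± 35.4, 866 ± 15.3 and 802 ± 90.1 (log2 fold change -0.23, 95% interval -0.39 to -0.07, adjusted p = 0.0938, limma). Lpcat3 varied most with BMDM-HG-exo, from 698 to 906, and passed only without BMDM-HG-exo replicate 2 (adjusted p = 0.0350, limma). For Apoe against PBS, the lowest adjusted p over the alternative fits (limma, edgeR or DESeq2) was 3.64e-05 with BMDM-HG-exo and 9.56e-05 with BMDM-NG-exo. Its log2 fold change went no lower than -0.13 in these fits, under the fold limit in size, and Apoe was called in none of them.

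The members did not move as 1 block from library to library. After group means were removed, Pearson's r over the 20 libraries ran from -0.47 (Abca1 and Abcg1) to 0.79 (Nr1h2 and Apoe) among the 36 pairs, and was 0.59 for Abca1 and Pltp. All points of a pair share the library, its size factor and its depth. Among 11698 other genes whose mean reached 50, the 5 whose pattern over the 20 libraries was most like that of Abca1 were Marcks (r = 0.92, and 0.64 with group means removed), Fgd2 (0.88 and 0.43), Cytip (0.87 and 0.58), Cfp (0.87 and 0.51) and Itga9 (0.87 and 0.49). Marcks, which encodes a membrane-bound substrate of protein kinase C, had means of 13752 normalized counts with PBS, 12179 with BMDM-NG-exo, 11445 with BMDM-HG-exo, 14150 in normal and 12012 in high glucose. Of the members, Lpcat3 (r = 0.57) and Pltp (0.54) came nearest to Abca1, at ranks 333 and 425, and Mylip was lowest at -0.68. For the 5 genes r was lower with group means removed, and all of these values are a description.

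**Figure D3:**
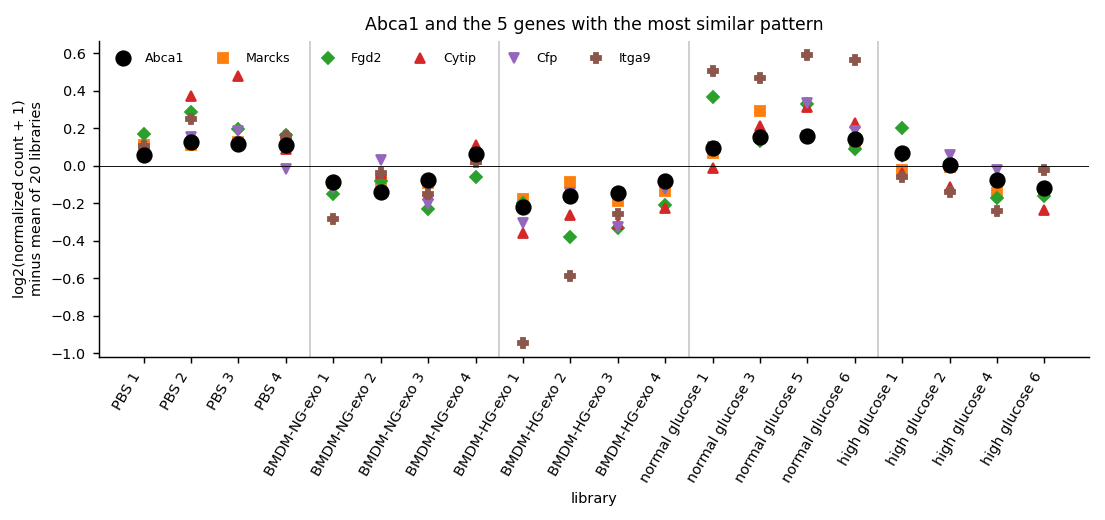
Log2(normalized count + 1) minus the mean of the 20 libraries (vertical axis) for Abca1 (black circles) and the 5 genes with the highest Pearson r to it, by library (horizontal axis, groups separated by grey lines). All 6 genes lie above 0 in most PBS and normal glucose libraries and below 0 in the BMDM-HG-exo libraries, and Itga9 spans the widest range.

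Around the 9 members stood 62 listed genes of 5 lists, namely LXR partners and coregulators, other LXR targets, cholesterol uptake, storage and transport, SREBP2 with its targets, and Abca1 promoter factors and protein partners. In high glucose 12 of these 62 were called (19.4%, against 13.3% of all genes tested), 6 higher and 6 lower. Their median log2 fold change was 0.002. Among the 14 partners and coregulators tested, 1 was called, the coactivator Ncoa3, which rose (log2 fold change 0.28, adjusted p = 3.82e-07, limma). The LXR partner Rxra was not called, with 3456 ± 93.2 normalized counts in normal glucose and 3515 ± 90.5 in high glucose (SD, n = 4).

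The list of other LXR targets gave 5 calls among 12 in high glucose, 3 higher and 2 lower, where 13.3% of all genes tested were called. Control by LXR was not tested for any gene of this list, including Abca7. Abca7, a close relative of Abca1 linked to phagocytosis, rose from 2726 ± 299 to 3756 ± 144 normalized counts (SD, n = 4, log2 fold change 0.47, adjusted p = 8.94e-08, limma). Mertk, a receptor for apoptotic cells, fell from 6737 ± 224 to 5113 ± 264 (SD, n = 4, log2 fold change -0.40, adjusted p = 7.85e-09, limma). Fasn, the fatty acid synthase, rose (0.20), as did Smpdl3a (0.17), and the transglutaminase gene Tgm2 fell (-0.20). The direction of the calls was thus mixed within the list, as it was among the members.

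Of 20 genes for uptake, storage and transport, 3 were called in high glucose, where 13.3% of all genes tested were called. The same share stands behind the other lists of this paragraph, and no excess is read from their small counts. Lipa, the lysosomal lipase that frees cholesterol from its esters, rose by 0.23 on the log2 scale (adjusted p = 1.50e-06, limma). Gramd1b, which moves cholesterol from the plasma membrane to the endoplasmic reticulum, had a log2 fold change of -0.22 and the sterol-binding Osbpl1a one of -0.30, both called lower. In the SREBP2 list 1 of 7 was called, Hmgcs1, an early enzyme of cholesterol synthesis, which was lower (-0.20). Of the 9 promoter factors and partners, the syntrophin gene Sntb2 was called higher (0.21) and Arhgef12, whose product binds ABCA1, lower (-0.36, adjusted p = 3.98e-06, limma).

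**Figure D4:**
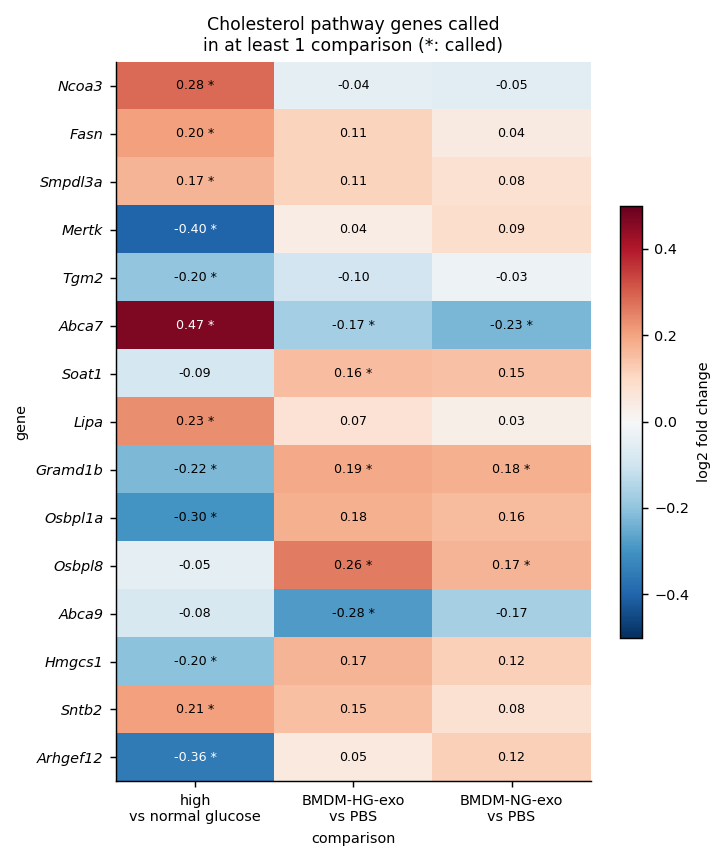
Log2 fold changes (colour and printed value) of the 15 pathway genes (rows) called in at least 1 comparison, for high against normal glucose and for each exosome against PBS (columns), with an asterisk for called genes. Abca7 reads 0.47 in high glucose and -0.17 and -0.23 in the exosome columns, which share the PBS libraries.

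In the exosome experiment, against PBS, 5 of the 62 (8.06%, against 4.84% of all genes tested) were called with BMDM-HG-exo, 3 higher and 2 lower, and 3 (4.84%, against 3%) with BMDM-NG-exo, 2 higher and 1 lower. Osbpl8, a lipid exchanger of the endoplasmic reticulum, had log2 fold changes of 0.26 with BMDM-HG-exo (adjusted p = 2.44e-07) and 0.17 with BMDM-NG-exo (adjusted p = 0.000398, both limma). Gm17849, a listed pseudogene, overlaps Osbpl8 on the same strand. Gramd1b rose by 0.19 and 0.18, while Abca7 fell by 0.17 and 0.23 on the log2 scale. Soat1, which esterifies cholesterol for storage, was called higher with BMDM-HG-exo (0.16), and with BMDM-NG-exo its 0.145 (adjusted p = 0.00592, limma) was just under the fold limit. The transporter gene Abca9 was called lower with BMDM-HG-exo (-0.28) and had -0.17 with BMDM-NG-exo (adjusted p = 0.225, limma). Between the exosomes neither differed past the threshold (0.01 and -0.12, adjusted p = 0.986 and 0.823, limma).

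Of the 14 partners and coregulators, 0 were called against PBS with either exosome by limma, edgeR or DESeq2, with 1 (BMDM-HG-exo) and 0 (BMDM-NG-exo) at an unadjusted p under 0.05 in limma. Of the 9 promoter factors and partners, limma and edgeR called 0 with either exosome. DESeq2 called 1 of the 9 with BMDM-HG-exo, and 833 of the 14413 genes tested. In limma, 4 (BMDM-HG-exo) and 2 (BMDM-NG-exo) of the 9 had an unadjusted p under 0.05. Rxra had 4234 ± 241, 4260 ± 127 and 4121 ± 209 normalized counts with PBS, with BMDM-NG-exo and with BMDM-HG-exo (SD, n = 4). Between the 2 kinds of exosome, limma, edgeR and DESeq2 each called 0 of the 62, with 6 at an unadjusted p under 0.05 in limma (6.54% of all genes tested). Against the combined controls limma and edgeR called 0 and DESeq2 called 2 (0.944% of all genes tested), with 15 at an unadjusted p under 0.05 in limma (10.5% of all genes tested). For the SREBP2 list the median log2 fold change against PBS was 0.11 (BMDM-HG-exo) and 0.15 (BMDM-NG-exo), with 6 and 7 of its 7 genes above 0, against an all-gene median of 0.003 and 0.005. Limma, edgeR and DESeq2 each called 0 of the 7 in both comparisons, which share the PBS libraries, with 2 at an unadjusted p under 0.05 in limma in each. The share of all genes at an unadjusted p under 0.05 was not counted against PBS. No excess or lack is therefore read from such counts against PBS.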

How the data were processed

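Total RNA libraries of 20 BMDM samples were analysed. The authors trimmed the reads with cutadapt, mapped them to GRCm38 with STAR 2.5.3a, and counted them per gene with FeatureCounts 2.0.1 by strand, with read 2 in the sense direction. The deposited signal is the gene count divided by 1 DESeq2 median-ratio size factor per library, calculated by the authors, who tested with DESeq2 1.20.0. The annotation used for counting is not given in the sources used here. GENCODE M21 gave symbols for 14421 of 14456 genes.

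Values within 0.01 of whole reads after division by the smallest step made up 100.0% of each column. In PBS replicate 4 and BMDM-HG-exo replicate 1 the step is close to 1. Recovered reads served for totals and for the alternatives with edgeR 4.0.16 and DESeq2 1.42.0. The main test was limma 3.58.1 in R 4.3.3 (lmFit, eBayes with trend) on log2(normalized count + 1), two-sided, for genes averaging 10 or more. The glucose and exosome libraries were fitted separately, the latter as 2 groups (combined controls) and as 3. limma was preferred because the deposited values are normalized. Exact permutation tests of Abca1 used scipy 1.17.1, and fits were tested on simulated data.

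The members and lists were chosen with earlier results of these data known. Pathway genes are named when called, at most 4 per list and comparison by size of change. The exception is the list of other LXR targets in high glucose, where all 5 called genes are named. Rxra is named besides as the LXR partner, and the 5 genes most like Abca1 by Pearson's r. Some genes of the pathway and marker lists are not reported here, and the counts and sums leave them out.

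Exosome libraries share 4 label dates across the groups, which were used as a block in an alternative fit. Deviations from group means correlated across genes with a mean r of 0.012 within dates (12 pairs) and -0.004 between dates (36 pairs). Further fits changed the pseudocount, filter, scaling, variance trend or fold limit, or left out 1 library each. Tables and figures used Python 3.11.15, pandas 2.3.3, numpy 2.4.6 and matplotlib 3.10.9.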

Additional observations from a re-analysis of the deposited data

Results flagged for a closer look

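Within groups of 4 libraries, a single value stood apart by Dixon's test in 3 of the 45 gene and group combinations (9 genes, 5 groups), where chance gives about 1 in 20. Nr1h2 was lowest in PBS replicate 3, at 3617 normalized counts, and without that library its change after BMDM-HG-exo against PBS was called (log2 fold change -0.20, adjusted p = 0.0105, limma). Lpcat3 was highest in high glucose replicate 2, at 854 normalized counts. Npc1 was highest in BMDM-NG-exo replicate 3, at 13600 normalized counts.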

How the results depend on the processing

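Of the 999 log2 fold changes of the members under alternatives, 957 kept their sign and their side of the threshold or changed sign while small and uncalled (4 of them, for Nr1h2 and Abcg1), 18 lost a call, 24 gained one and 0 called values changed sign. In high against normal glucose, 4 members and 12 pathway genes were called. Without the variance trend 1 member (Pltp) and 6 pathway genes remained past the threshold, and with the library number as a replicate block (2 shared numbers, mean r of 0.008, so that only 4 libraries bear on the difference) also 1 (Pltp) and 6, with adjusted p of 0.105 for Abca1, 0.149 for Abcg1 and 0.594 for Mylip (log2 fold change 0.08). Without a library, 2 to 4 members and 10 to 14 pathway genes were called, and the lowest member count came without high glucose replicate 6. For BMDM-HG-exo against the combined controls (0 and 0), members called numbered 1 with a pseudocount of 5 and 2 with DESeq2, pathway genes 2 with DESeq2, and without a library 0 to 2 and 0 to 1. For BMDM-HG-exo against PBS (2 and 5), members numbered 1 without the trend, and pathway genes 2 without the trend, 9 without the fold limit and 4 to 8 without a library (8 without PBS replicate 2). For BMDM-NG-exo against PBS (1 and 3), both numbered 0 without the trend, and 2 and 7 without the fold limit, Npc1 being the added member. There, 0 to 1 members and 3 to 5 pathway genes were called without a library (5 without PBS replicate 2 or 4 or BMDM-NG-exo replicate 4). The cause was not tested in any of these. Between the exosomes all counts stayed at 0. With the label date as a replicate block, which pairs the exosome libraries, Nr1h2 was the only member to gain a call (3 members and 7 pathway genes for BMDM-HG-exo against PBS), and no call of a member was lost. Over all genes, calls without the trend numbered 654, 1, 1, 295 and 95 in the order used here (glucose, combined controls, between exosomes, BMDM-HG-exo and BMDM-NG-exo against PBS), in place of 1914, 29, 2, 698 and 432, with edgeR 1904, 32, 1, 691 and 445, and with DESeq2 2162, 136, 25, 833 and 512. The blocks gave 788 genes for glucose and 22 between the exosomes. Against the combined controls, all-gene calls were 47 with a pseudocount of 5, 19 with quantile normalization and 1 (without BMDM-HG-exo replicate 1) to 204 (without BMDM-NG-exo replicate 3) on leaving out a library, and between the exosomes 5 with a pseudocount of 5 or a filter at 50, 1 with TMM or edgeR and 1 to 7 without a library. The permutation p of Abca1 against the combined controls was 0.0121 to 0.0485 without a library, an alternative chosen after seeing the data, and with 3 against 4 libraries no p could go below 0.0571.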
